A study of Mus musculus with 169 samples.

Results

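The 10 genes described here belong to the unfolded protein response and the integrated stress response, and were followed in sorted mouse microglia with and without progranulin, the secreted and lysosomal glycoprotein encoded by Grn. The genes were Atf4, Atf5, Ddit3, Xbp1, Hspa5, Trib3, Asns, Chac1, Ddit4 and Sesn2, and every array probe whose transcript accession maps to one of them was taken. That gave 11 probes, 2 of them for Atf4 and 1 for each other gene, among 55681 probes and 20145 gene symbols on the array. The microglia were of 4 groups on a C57B/6J background: Grn+/+ (WT) and Grn-/- (KO) mice at 4 months, and WT and KO mice at 16 months. The labels name no treatment for either genotype. The cells had been enriched on Percoll gradients and sorted by flow cytometry with antibodies to CD11b, CD45 and Ly6G. Single-color Agilent arrays numbered 4 WT and 3 KO at 4 months, and 4 WT and 4 KO at 16 months. Hippocampus, cortex and cerebellum of WT, heterozygous and KO mice were also profiled, on bead arrays that were not used here. The labels do not say whether each array holds the cells of 1 mouse or of several, nor the sex of the mice, so p-values measure only the spread between these samples.

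A cell that accumulates misfolded protein in the endoplasmic reticulum (ER) signals through the sensors PERK, IRE1 and ATF6. PERK, and with it the amino acid sensor GCN2, phosphorylates the translation factor eIF2, which slows protein synthesis in general while the messenger RNA of the transcription factor ATF4 is translated more. ATF4 acts together with C/EBP family partners on genes for amino acid supply and for growth arrest or death, and ATF6 and spliced XBP1 act on ER chaperone genes. Because ATF4 is controlled largely at translation and XBP1 by splicing, the messenger RNA levels measured here do not read the activity of either protein.

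The promoters of the 10 genes are shown first because genes of this family are often recognised by short elements near their start. RefSeq windows of 250 bases before and 50 bases from each gene start (build GRCm38.p6) were found for 10 of 10 genes, 11 windows in all because Atf5 has 2. They were searched on both strands for the ER stress element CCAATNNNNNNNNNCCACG, the core of the C/EBP-ATF response element TGATGNAA, the XBP1 and ATF6 site core TGACGTGG and the palindromic cyclic AMP response element TGACGTCA. No match overlapped another. Positions are counted from the gene's first base as 0, and capitals mark the match. Hspa5 held the ER stress element at -65 to -47, within chr2:34772000-34772068 on the plus strand. Asns held the C/EBP-ATF core at -23 to -16, within chr6:7693200-7693257 on the minus strand. Trib3 held it on the opposite strand at 14 to 21, within chr2:152344039-152344071 on the minus strand, and Chac1 on the opposite strand at -193 to -186, within chr2:119351024-119351081 on the plus strand.
Hspa5: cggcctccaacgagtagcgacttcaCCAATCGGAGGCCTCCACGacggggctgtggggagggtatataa
Asns: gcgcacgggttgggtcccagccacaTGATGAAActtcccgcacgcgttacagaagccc
Trib3: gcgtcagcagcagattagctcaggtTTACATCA
Chac1: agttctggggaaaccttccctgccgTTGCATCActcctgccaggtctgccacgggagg
Of all 32851 promoter windows, 0.119% held the ER stress element and 3.97% the C/EBP-ATF core, so the latter is the more common of these 2. Of the 11 windows 1 held the former and 3 the latter. The other 2 motifs, present in 0.676% and 1.79% of all windows, were in none of the 11. The 2 genes with a probe that passed the test below had no match of the 4 motifs in their windows, which says only that these letters are not there. They are Ddit4, with its 1 probe, and Atf4, with 1 of its 2 probes. Their 250 bases before the start lie at chr10:59951771-59952020 on the minus strand for Ddit4 and at chr15:80254934-80255183 on the plus strand for Atf4.
Ddit4: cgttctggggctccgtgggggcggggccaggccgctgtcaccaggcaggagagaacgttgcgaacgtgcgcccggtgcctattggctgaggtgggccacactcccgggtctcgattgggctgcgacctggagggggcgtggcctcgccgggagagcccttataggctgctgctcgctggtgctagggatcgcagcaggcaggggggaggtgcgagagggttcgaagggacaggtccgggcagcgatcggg
Atf4: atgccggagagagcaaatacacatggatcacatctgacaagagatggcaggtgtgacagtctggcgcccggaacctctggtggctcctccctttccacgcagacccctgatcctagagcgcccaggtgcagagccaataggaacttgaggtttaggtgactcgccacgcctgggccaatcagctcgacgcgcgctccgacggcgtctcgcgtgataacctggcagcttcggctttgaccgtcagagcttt

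A level is the log2 of a probe's processed signal divided by the 75th percentile of that signal on its array. The 75th percentile was 507.5 to 1752.4 over the 15 arrays, 54.2 to 76.5% of probes were well above background, and 0 spots were saturated. The 4 WT arrays at 16 months fell into 2 pairs, arrays 1 and 2 and arrays 3 and 4, that differed by less than repeat spots of 1 array do, and each pair was counted as 1 sample, so that group has n = 2. Below, WT samples 1 and 2 means the pair of arrays 1 and 2, and WT samples 3 and 4 the pair of arrays 3 and 4. Leaving out either pair leaves n = 1. KO array 2 at 16 months stood apart with the lowest 75th percentile. The Grn probe was at 6.25 ± 0.09 (SD, n = 4) in WT microglia and -2.77 ± 0.66 (SD, n = 3) in KO microglia at 4 months. At 16 months it was at 5.04 ± 0.60 in WT (SD, n = 2) and well above background on 0 of 4 KO arrays, at least 1010-fold lower in KO. All 12 microglia markers were above background in every group, and 9 of the 12 fell in KO at 16 months, with a median of -2.84. Their summed signal, in units of the 75th percentile, ranged from 1060 to 1960 over the WT arrays and from 245 to 600 over the KO arrays of that age. At 4 months it ranged from 1570 to 2040 (WT) and from 1540 to 2410 (KO). The sum of the 9 choroid plexus markers ranged from 10.8 to 128 (WT) and from 188 to 300 (KO) at 4 months, and from 328 to 640 (WT) and from 1030 to 1920 (KO) at 16 months. On the KO arrays of 16 months it lay above the microglia sum, and in every other group below it. Sums over different probes do not give shares of cells. Below, microglia names the sorted sample as a whole.

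Ddit4 showed the widest difference of the 11 probes. It encodes REDD1, an inhibitor of the growth kinase complex mTORC1 that is induced by energy stress, low oxygen, glucocorticoids and ATF4. In KO microglia at 16 months its 4 arrays read 2.63, 2.89, 1.26 and 1.04. The 4 WT arrays of that age read 6.09, 6.02, 4.64 and 4.71, so every WT array lay above every KO array. The difference of -3.41 (SE 0.62, limma adjusted p = 0.00353) is a 10.6-fold lower signal, with a 95% interval from -4.81 to -2.01 on the log2 scale. Fewer microglia in the sort, more RNA from other cells and less Ddit4 RNA per cell cannot be told apart in these bulk samples. The part of the lower microglia and higher choroid plexus marker sums in this result was not tested.

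At 4 months Ddit4 did not separate the genotypes. WT arrays 1 to 3 read 6.24, 6.52 and 5.19, and the spot of WT array 4 was left out as an outlier of the scanner software. The 3 KO arrays read 6.75, 6.53 and 6.36, overlapping WT array 2, and the difference was 0.56 (SE 0.59, limma adjusted p = 1). The change at 16 months minus that at 4 months was -3.97 (SE 0.85, limma adjusted p = 0.0194), a call that ended without WT samples 1 and 2 of 16 months (-3.28, limma adjusted p = 0.0668). In order, the group means were 6.55 ± 0.20 in KO at 4 months (SD, n = 3), 5.98 ± 0.70 in WT at 4 months (SD, n = 3), 5.37 ± 0.98 in WT at 16 months (SD, n = 2) and 1.96 ± 0.94 in KO at 16 months (SD, n = 4). Neighbours in this order overlapped, except WT and KO at 16 months, and the order between ages cannot be told apart from the slide. The call at 16 months held in every fit without 1 KO array of that age, and ended when only arrays of 16 months were fitted (adjusted p = 0.0634). The difference ranged from -4.10 to -2.72 when any 1 sample was left out. Leaving out an array of 4 months does not move it.

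Atf4, the transcription factor at the centre of the response, gave different answers on its 2 probes. Both carry the same RefSeq transcript in the array's annotation. On probe A_55_P1979728 the KO arrays of 16 months read 5.40, 5.80, 4.37 and 5.29 and the WT arrays 6.36, 6.32, 7.04 and 7.19. The genotypes did not overlap there, and the difference was -1.51 (SE 0.35, limma adjusted p = 0.00949), a 2.85-fold lower signal with a 95% interval from -2.30 to -0.73. At 4 months the same probe read 6.87, 6.65, 6.67 and 6.79 in WT and 6.63, 7.15 and 6.90 in KO. Those values overlapped, with a difference of 0.15 (SE 0.31, limma adjusted p = 1). The change at 16 months minus that at 4 months was -1.66 (SE 0.47, limma adjusted p = 0.0475), a call that held in 3 of the 13 fits that left out 1 sample (adjusted p 0.0215 to 0.148).

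The second Atf4 probe, A_51_P464238, did not pass. It read 2.19, 0.58, 0.98 and 2.04 on the KO arrays of 16 months. WT arrays 1 and 2 of that age read -0.38 and -0.35 and WT arrays 3 and 4 read 2.51 and 2.60, so the 2 WT samples lay on either side of all 4 KO arrays. The difference was 0.35 (SE 0.72, limma adjusted p = 0.779) with a 95% interval from -1.24 to 1.95. Without WT samples 1 and 2 it was -1.10 (adjusted p = 0.259). At 4 months this probe read 1.61, 1.12, 1.73 and 1.51 in WT and 1.22, 0.19 and 1.11 in KO, a difference of -0.65 (SE 0.63, limma adjusted p = 1). The Atf4 call on A_55_P1979728 ended without WT samples 3 and 4 (-1.13, adjusted p = 0.0917) and when only arrays of 16 months were fitted (adjusted p = 0.119).

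**Figure D1:**
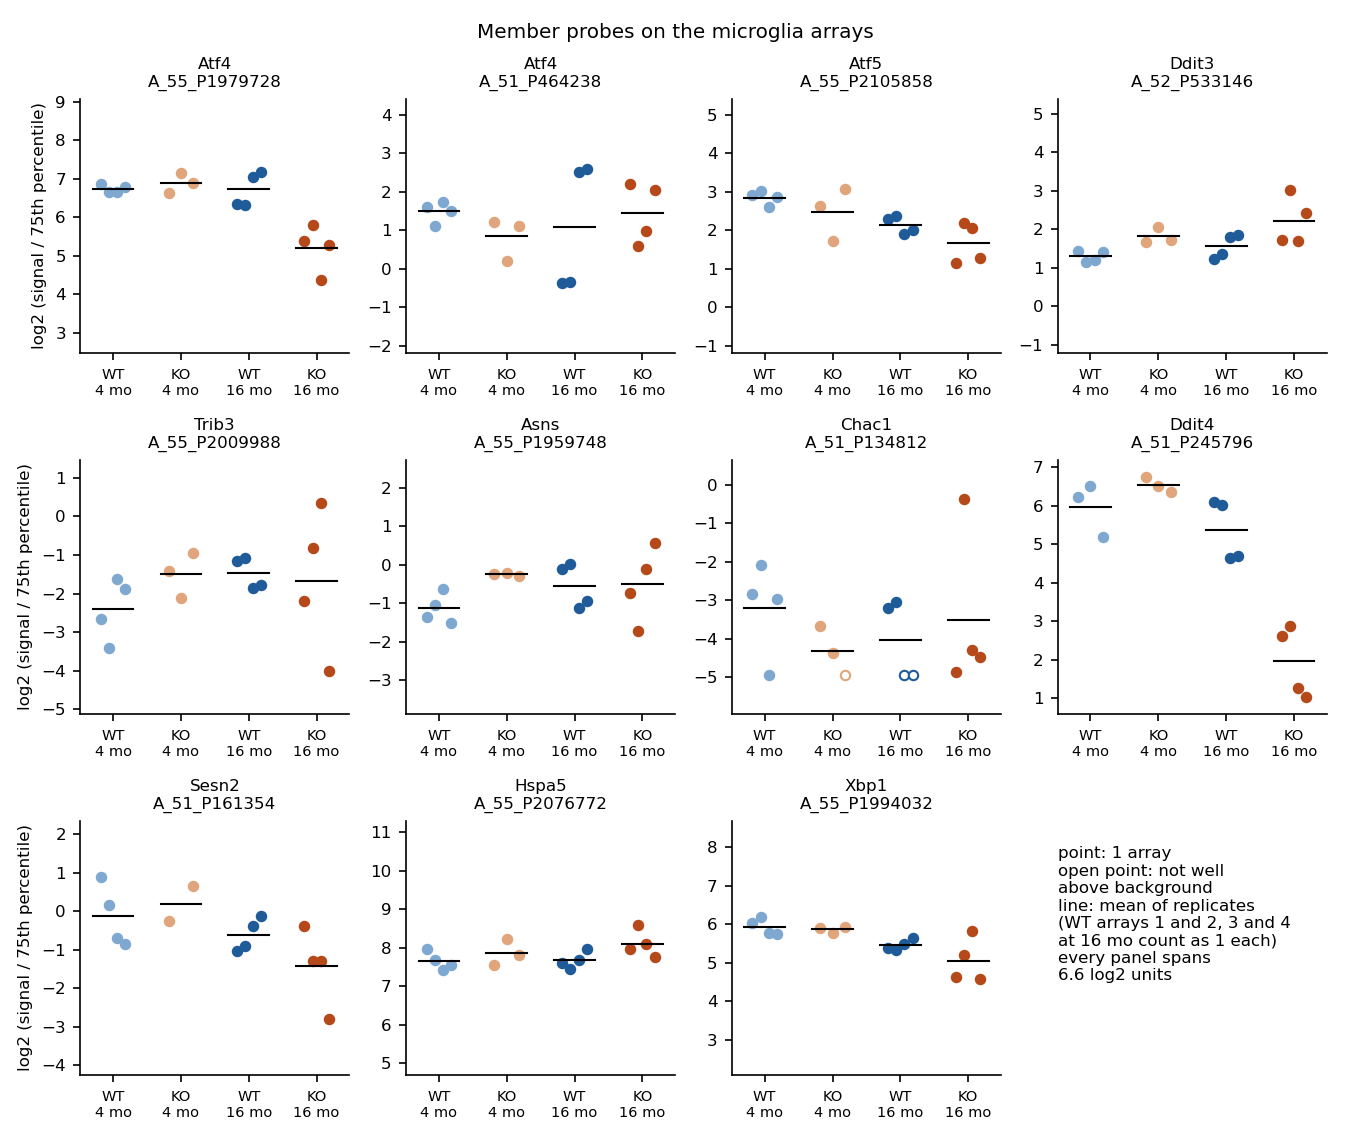
Level of each of the 11 probes on the vertical axis (log2, relative to the 75th percentile of the array) on each of the 15 arrays by genotype and age, with a line at the mean of the samples of a group; open points are not well above background. The 4 KO arrays of 16 months lie below all others for Ddit4 and for Atf4 on A_55_P1979728, while the second Atf4 probe splits the WT arrays of 16 months into 2 pairs.

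Ddit3 and Atf5 encode transcription factors downstream of ATF4. Ddit3, also called CHOP, promotes death under lasting ER stress. It read 1.43, 1.15, 1.20 and 1.42 on the WT and 1.68, 2.06 and 1.72 on the KO arrays of 4 months. Every KO array was above every WT array there, with a difference of 0.51 (SE 0.31, limma adjusted p = 0.95). Full separation of 4 from 3 arrays can arise by chance, and 89.2% of all probes had a lower difference at that age. At 16 months Ddit3 read 1.22, 1.35, 1.80 and 1.86 in WT and 1.72, 3.03, 1.69 and 2.43 in KO, a difference of 0.66 (SE 0.35, limma adjusted p = 0.183) with overlapping groups. Its 95% interval at 16 months ran from -0.11 to 1.44, while the intervals of Ddit4 and of the first Atf4 probe lay wholly below 0. Atf5, a relative of ATF4 that also acts in the mitochondrial stress response, was at 2.85 ± 0.17 (SD, n = 4) in WT microglia and 2.47 ± 0.69 (SD, n = 3) in KO microglia at 4 months, a difference of -0.37 (SE 0.35, limma adjusted p = 1). At 16 months it was at 2.15 ± 0.27 (SD, n = 2) in WT microglia and 1.67 ± 0.53 (SD, n = 4) in KO microglia. The difference was -0.48 (SE 0.39, limma adjusted p = 0.409).

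Asns, Trib3 and Chac1 are target genes through which ATF4 activity is commonly read, and they are the 3 whose windows held the C/EBP-ATF core printed above. Asns, asparagine synthetase, read -1.36, -1.05, -0.62 and -1.50 in WT and -0.24, -0.22 and -0.30 in KO at 4 months. The KO arrays lay close together above all WT arrays, with a difference of 0.88 (SE 0.47, limma adjusted p = 0.908). Of all probes, 95.5% had a lower difference at that age. At 16 months it read -0.10, 0.01, -1.13 and -0.95 in WT and -0.73, -1.72, -0.10 and 0.57 in KO. The genotypes overlapped fully, and the difference was 0.05 (SE 0.54, limma adjusted p = 1).

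Trib3, a pseudokinase that restrains ATF4 and CHOP, spread widely among the KO arrays of 16 months. They read -2.19, -0.82, 0.35 and -4.01, around WT arrays at -1.15, -1.08, -1.85 and -1.78. The difference of -0.20 (SE 0.99, limma adjusted p = 0.948) has a 95% interval from -2.40 to 2.00. At 4 months Trib3 was at -2.39 ± 0.81 (SD, n = 4) in WT microglia and -1.49 ± 0.59 (SD, n = 3) in KO microglia. The difference was 0.90 (SE 0.88, limma adjusted p = 1). Chac1, an enzyme that degrades glutathione, was near the limit of the arrays and above background on 12 of 15. At 16 months it read -3.19 and -3.04 on WT arrays 1 and 2, was not above background on WT arrays 3 and 4, and read -4.87, -0.37, -4.30 and -4.48 in KO. KO array 2, which stood apart in the array checks, alone was high. The difference was 0.52 (SE 1.21, limma adjusted p = 0.815), and -0.52 without that array (adjusted p = 0.695). At 4 months Chac1 was at -3.21 ± 1.22 (SD, n = 4) in WT microglia and -4.33 ± 0.63 (SD, n = 3) in KO microglia, where 1 KO array was not above background. The difference was -1.12 (SE 1.07, limma adjusted p = 1).

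Sesn2 encodes sestrin 2, a leucine sensor that like REDD1 restrains mTORC1. At 16 months it read -1.02, -0.90, -0.39 and -0.12 on the WT arrays and -0.37, -1.28, -1.29 and -2.79 on the KO arrays. KO arrays 2 to 4 lay below all WT arrays and KO array 1 among them, for a difference of -0.82 (SE 0.68, limma adjusted p = 0.412). At 4 months Sesn2 read 0.89, 0.16, -0.69 and -0.85 in WT and -0.25 and 0.65 on KO arrays 1 and 3, with the outlier spot of KO array 2 left out. The difference was 0.32 (SE 0.68, limma adjusted p = 1). The Sesn2 interval at 16 months, -2.35 to 0.71, reaches into that of Ddit4, and no test compared the 2 mTORC1 inhibitors with each other.

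Hspa5 and Xbp1 belong to the ER arms of the response. Hspa5 encodes BiP, the main ER chaperone. At 16 months it read 7.61, 7.44, 7.68 and 7.98 in WT and 7.96, 8.58, 8.10 and 7.75 in KO. The groups overlapped, and the difference was 0.42 (SE 0.27, limma adjusted p = 0.266; -0.13 with quantile normalization), with a 95% interval from -0.17 to 1.02. At 4 months it was at 7.66 ± 0.24 (SD, n = 4) in WT microglia and 7.86 ± 0.34 (SD, n = 3) in KO microglia. The difference was 0.21 (SE 0.24, limma adjusted p = 1). These are the narrowest intervals of the 11 probes at both ages.

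Xbp1 encodes the factor whose messenger RNA IRE1 splices. The annotation does not say whether the array probe separates the spliced form. At 16 months Xbp1 read 5.38, 5.32, 5.47 and 5.63 in WT and 4.63, 5.19, 5.81 and 4.58 in KO. KO arrays 1, 2 and 4 lay below WT and KO array 3 above it, for a difference of -0.40 (SE 0.31, limma adjusted p = 0.375). With quantile normalization the difference was -1.05 and passed (adjusted p = 0.0229). At 4 months Xbp1 was at 5.93 ± 0.21 (SD, n = 4) in WT microglia and 5.88 ± 0.08 (SD, n = 3) in KO microglia. The difference was -0.06 (SE 0.27, limma adjusted p = 1).

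Counted together, 2 of the 11 probes passed limma's test at 16 months, both lower in KO, and 0 were higher. Of all 45614 probes tested at that age 30.2% passed, 17.4% higher and 12.8% lower in KO, so 2 of 11 is not more than the arrays gave at large. The median difference of the 11 was -0.20, against 0.10 over all probes. That median of all probes was 0.48 when the background was corrected with normexp. Of all calls 57.5% were higher in KO, and 45.2% when the percentile came only from probes detected everywhere. Among probes above background on all arrays 9851 of 22536 passed, 6606 higher and 3245 lower, with a median of 0.53. Of the 10 member probes in that set 2 passed, both lower, and the member median was -0.30. Of all probes 15.0% had a difference below that of the first Atf4 probe and 4.00% one below that of Ddit4. At 4 months 0 of the 11 passed, against 0.0219% of 45611 probes (10 probes, and 2758 at an unadjusted p under 0.05), with a median of 0.21 against 0.00. In this main fit no member was under an unadjusted p of 0.05 at 4 months, where the lowest was 0.0908 (Asns). That holds for the main fit alone. Over the other settings the limma adjusted p at 4 months went down to 0.221 for Asns and 0.222 for Ddit3, and neither passed. For the change at 16 months minus that at 4 months 2 of 11 passed, both lower, against 11.3% of all probes. Age and slide cannot be told apart, because the arrays of each age share 1 slide, so no level was tested between ages.

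**Figure D2:**
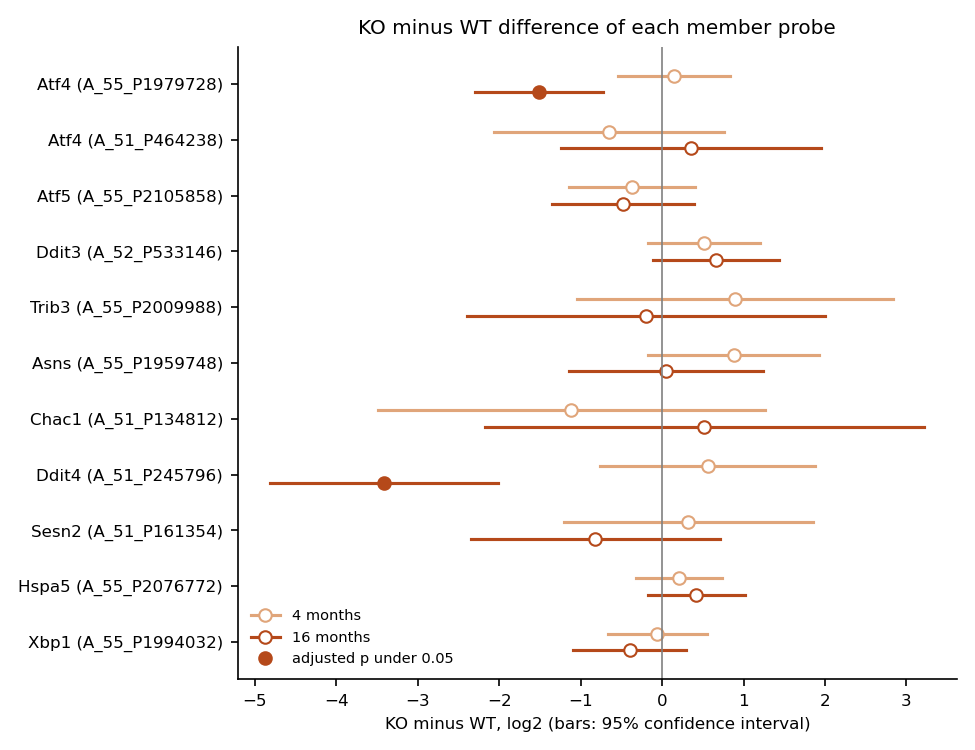
KO minus WT difference (log2, horizontal axis) of each probe at 4 and at 16 months, with the 95% confidence interval as a bar; filled points passed limma's test. The intervals of Ddit4 (-4.81 to -2.01) and of Atf4 on A_55_P1979728 (-2.30 to -0.73) at 16 months are the 2 that passed, and all intervals at 4 months include 0.

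**Figure D3:**
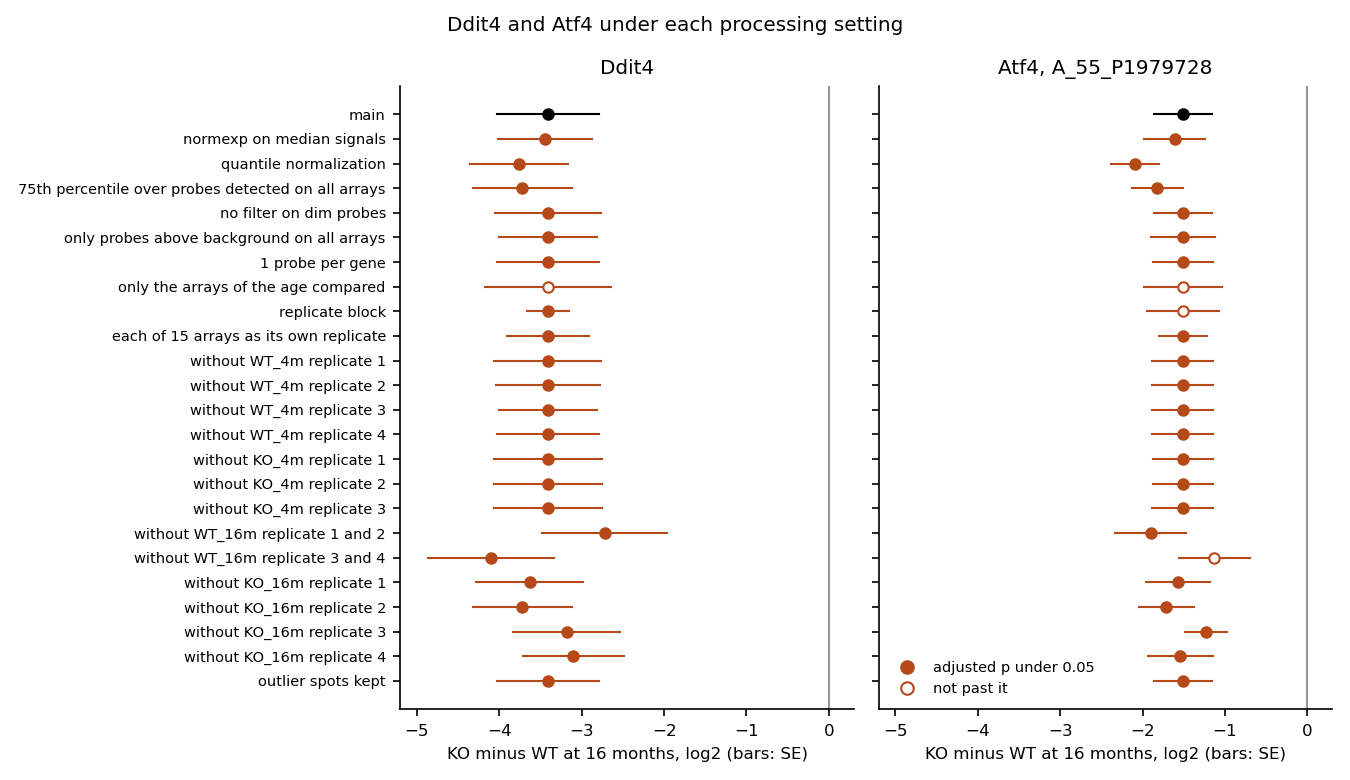
KO minus WT difference at 16 months (log2, with its SE as a bar) of Ddit4 and of Atf4 on A_55_P1979728 under each of 24 processing settings; filled points passed limma's test. The difference stayed between -4.10 and -2.72 for Ddit4 and between -2.09 and -1.13 for Atf4, and the open points are the settings in which it did not pass.

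The lists that follow hold the other genes of these pathways. What part the marker sums above had in their differences was not tested. Of all probes tested at 16 months 17.4% passed higher and 12.8% lower in KO, with a median of 0.10. Among probes above background on all arrays 6606 of 22536 passed higher and 3245 lower, with a median of 0.53. List counts and medians near these do not set a list apart. When only arrays of 16 months were fitted, each list had 0 to 3 rises and 0 to 2 falls, immediate early genes aside, and the calls below are from the fit over both ages. The genes that sense stress and act on eIF2 moved both ways at 16 months. Of 21 tested, 4 rose and 3 fell, with a median of 0.55 (-0.13 to 0.74 over the other settings). Ppp1r15a, the GADD34 subunit that directs dephosphorylation of eIF2 and is itself an ATF4 target, fell by 4.01 (SE 0.39, limma adjusted p = 0.000134) from 4.96 ± 1.12 in WT (SD, n = 2) to 0.96 ± 0.44 in KO (SD, n = 4). At 4 months it was at 5.27 in WT and 5.19 in KO on average. Its constitutive relative Ppp1r15b differed by -2.54 (adjusted p = 0.0436), a call lost in 14 of 22 other settings. Of the listed subunits of eIF2B, the exchange factor that phosphorylated eIF2 blocks, Eif2b2 and Eif2b4 are not among the genes named here. Eif2b5 rose by 2.78 (SE 0.37, limma adjusted p = 0.000535), Eif2b3 by 1.98 (adjusted p = 0.0109) and Eif2b1 by 1.55 (adjusted p = 0.0192). Without WT samples 1 and 2 the last 2 had an adjusted p of 0.128 and 0.205. Mbtps1, the protease that cuts ATF6, fell by 1.22 (adjusted p = 0.0373; lost in 11 of 23 other settings). The sensors themselves did not pass: Eif2ak3 (PERK) differed by -0.98 (adjusted p = 0.0576; 0.0451 without WT samples 1 and 2 and 0.0329 without KO array 3), Eif2ak4 (GCN2) by 0.10 (0.891), Ern1 (IRE1) by -0.22 (0.807) and Atf6 by 0.83 (0.33). Eif2ak3 also passed with quantile normalization (0.00685) and with the percentile over detected probes (0.00963), while its adjusted p reached 0.387 over the 23 other settings.

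ER chaperones and folding enzymes, the group to which Hspa5 belongs, rose in 6 and fell in 1 of 20 at 16 months, with a median of 0.71. With quantile normalization 3 rose and 2 fell. P4hb, a protein disulfide isomerase, rose by 1.52 (SE 0.25, limma adjusted p = 0.00166), from 3.04 ± 0.70 in WT (SD, n = 2) to 4.56 ± 0.22 in KO (SD, n = 4). The oxidase Ero1b rose by 2.07 (adjusted p = 0.0116; 0.122 without WT samples 1 and 2) and the secreted ER protein Manf by 1.53 (adjusted p = 0.0373; lost in 13 of 23 other settings). Uggt1, which senses misfolded glycoproteins, fell by 1.37 (adjusted p = 0.0139; 0.087 without WT samples 3 and 4). Hsp90b1, the ER form of HSP90, differed by 0.53 (adjusted p = 0.273) and the co-chaperone Dnajb9 by 1.07 (adjusted p = 0.19).

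ER-associated degradation and translocation genes rose in 4 and fell in 3 of 20, with a median of 0.06 (-0.29 to 0.49 over the other settings). Selenos, a selenoprotein of the degradation machinery, rose by 1.57 (SE 0.24, limma adjusted p = 0.001), Sec63 by 1.34 (adjusted p = 0.00339) and the signal peptidase subunit Spcs2 by 1.18 (adjusted p = 0.00314; 0.48 and 0.0954 with quantile normalization). The ubiquitin ligase Syvn1 fell by 2.09 (adjusted p = 0.0243), the lectin Os9 by 1.30 (adjusted p = 0.0149) and the channel subunit Sec61a1 by 0.99 (adjusted p = 0.0218). Without WT samples 3 and 4 these falls had an adjusted p of 0.118, 0.149 and 0.172, and without WT samples 1 and 2 that of Syvn1 was 0.0881. Herpud1, an ER stress target, differed by -0.97 (adjusted p = 0.108; 0.0174 without KO array 2, 0.00262 with quantile normalization and up to 0.38 in other settings).

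Partners of ATF4 and effectors of the response mostly fell where they passed. Of 19 listed 17 were tested, 2 rose and 6 fell, with a median of -1.46 (-1.81 to -0.78 over the other settings). Besides Ppp1r15a, which this list shares, Cebpb, a C/EBP factor that pairs with ATF4, fell by 3.09 (SE 0.48, limma adjusted p = 0.00123) from 6.10 ± 0.17 in WT (SD, n = 2) to 3.01 ± 0.89 in KO (SD, n = 4). The death gene Bbc3 (PUMA) fell by 3.12 (SE 0.68, limma adjusted p = 0.00688; 0.0785 without WT samples 3 and 4). The rises were Gdf15, a stress cytokine (2.57, adjusted p = 0.0211), and Vldlr, a lipoprotein receptor (2.56, adjusted p = 0.0268). Without WT samples 3 and 4 their adjusted p was 0.227 and 0.257, and that of Vldlr was 0.0567 without KO array 1 and 0.052 without KO array 3. At 4 months Gdf15 was at -1.79 ± 1.02 (SD, n = 4) in WT microglia and 0.07 ± 0.21 (SD, n = 3) in KO microglia, which did not overlap but did not pass (adjusted p = 0.628). Atf3, a stress-induced relative of ATF4, was at 4.33 ± 2.31 in WT (SD, n = 2) and at 2.33 ± 0.79 in KO (SD, n = 4) at 16 months, where it did not pass (limma adjusted p = 0.0724). It passed without WT samples 1 and 2 (adjusted p = 0.00336), without KO array 4 (0.0341) and with quantile normalization (0.0403). Over all 23 other settings the Atf3 difference ranged from -3.63 to -0.37 and its adjusted p reached 0.749.

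Amino acid synthesis genes, the branch to which Asns belongs, rose in 4 and fell in 1 of 17 tested, with a median of 0.36 (-0.19 to 0.47 over the other settings). Cth, which makes cysteine from cystathionine, rose by 4.07 (SE 0.54, limma adjusted p = 0.000537) from -0.31 ± 0.83 in WT (SD, n = 2) to 3.75 ± 0.18 in KO (SD, n = 4). At 4 months Cth was above background on 1 of 4 WT and 3 of 3 KO arrays. Its means at that age were -4.82 (WT) and -3.00 (KO), so the group means rose in the same order as the choroid plexus marker sums. The part of choroid plexus RNA in this rise was not tested. Shmt1, a serine hydroxymethyltransferase, rose by 2.34 (adjusted p = 0.0275), and Mthfd1l, an enzyme of folate metabolism, fell by 1.54 (adjusted p = 0.011). These 2 had an adjusted p of 0.215 and 0.117 without WT samples 3 and 4. Of the serine synthesis genes, Psat1 differed by -0.38 (adjusted p = 0.412; 0.0422 without WT samples 1 and 2 and up to 0.689 in other settings) and Phgdh by 0.45 (adjusted p = 0.323; 0.0264 with outlier spots kept and up to 0.81 in other settings).

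Amino acid transporters rose in 0 and fell in 4 of 14, with a median of -0.98 (-1.45 to -0.47 over the other settings). Slc43a1 was well above background on all 4 WT and on 0 of 4 KO arrays of 16 months, at least 5.06-fold lower in KO (limma adjusted p = 0.000925). The cationic carrier Slc7a1 fell by 2.09 (SE 0.44, limma adjusted p = 0.00583; 0.0563 without WT samples 3 and 4). The leucine carrier Slc7a5 differed by -2.09 as well (SE 0.67, limma adjusted p = 0.0374), a call lost in 15 of 23 other settings. The cystine carrier Slc7a11, an ATF4 target, was above background on 2 of 4 WT and 2 of 4 KO arrays of 16 months (adjusted p = 0.468). Aminoacyl-tRNA synthetases, which charge transfer RNAs, rose in 6 and fell in 2 of 19, with a median of 0.44. Mars1 rose by 2.10 (adjusted p = 0.0011), Farsb by 2.08 (adjusted p = 0.00082) and Kars by 1.60 (adjusted p = 0.00419), while Aars fell by 1.70 (adjusted p = 0.00412) and Yars by 2.18 (adjusted p = 0.0111; 0.0742 without WT samples 3 and 4). With quantile normalization 4 synthetases rose and 4 fell.

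**Figure D4:**
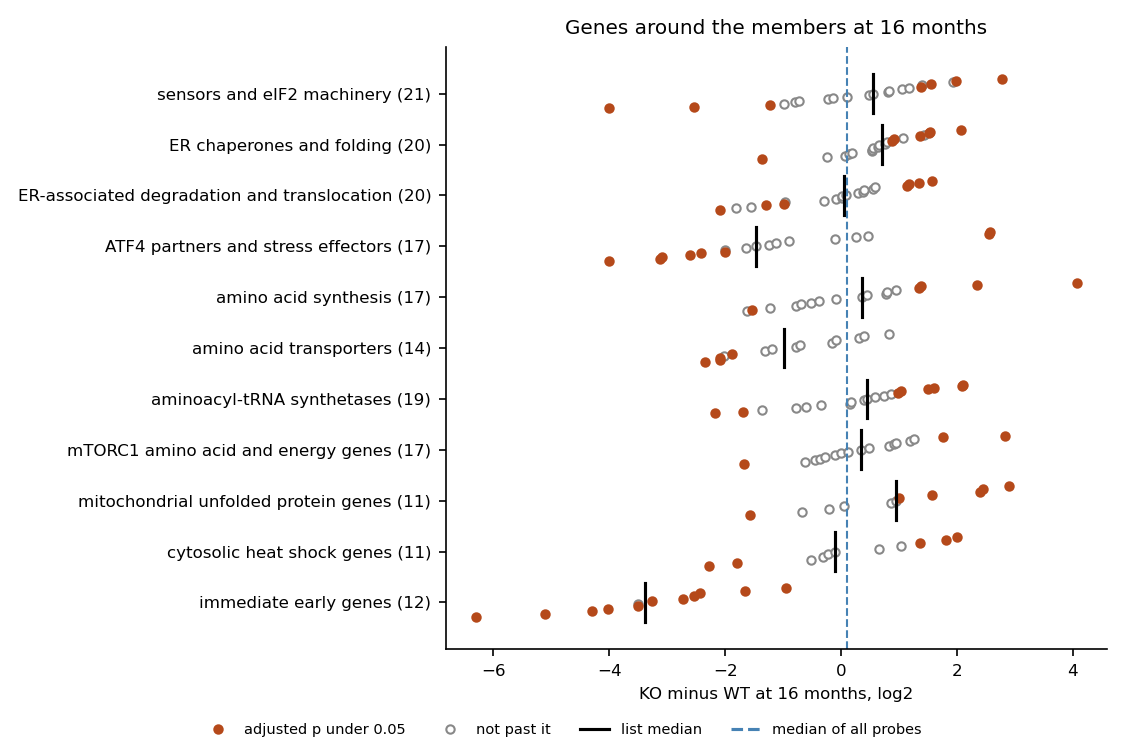
KO minus WT difference at 16 months (log2, horizontal axis) of each tested gene in the lists around the 10 genes, with the number tested in parentheses; filled points passed limma's test, black bars are list medians and the dashed line is the median of all probes. ATF4 partners, amino acid transporters and immediate early genes have medians of -1.46, -0.98 and -3.38, and the mitochondrial list has a median of 0.94. The dashed line is at 0.10, and the median of probes above background on all arrays was 0.53.

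Of 17 other genes through which amino acids and energy act on mTORC1, 2 rose and 1 fell, with a median of 0.34 (-0.22 to 0.89 over the other settings). The list mixes directions, since Depdc5, Nprl2, Nprl3, Tsc1, Tsc2 and the kinase subunit Prkaa1 act as brakes, as Ddit4 and Sesn2 do, while the GATOR2 subunits Sec13, Seh1l, Wdr24, Wdr59 and Mios promote mTORC1 activity. Sec13, which is also a subunit of the nuclear pore, rose by 2.83 (SE 0.53, limma adjusted p = 0.00332), Prkaa1, of the energy sensing kinase AMPK, rose by 1.76 (adjusted p = 0.0316) and Tsc1 fell by 1.67 (adjusted p = 0.0308). Without WT samples 3 and 4 Prkaa1 and Tsc1 had an adjusted p of 0.114 and 0.171, without WT samples 1 and 2 of 0.132 and 0.0762. Prkaa1 had 0.0502 without KO array 3 and Tsc1 0.0646 without KO array 1. The other sestrins did not pass: Sesn1 differed by -0.27 (adjusted p = 0.571; 0.00808 with quantile normalization and up to 1 in other settings) and Sesn3 by 0.92 (adjusted p = 0.112; 0.0363 without KO array 2 and up to 0.341 in other settings).

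Mitochondrial unfolded protein genes rose in 5 and fell in 1 of 11, with a median of 0.94 (0.41 to 1.02 over the other settings). The protease Clpp rose by 2.89 (SE 0.22, limma adjusted p = 5.44e-05), from 1.49 ± 0.27 in WT (SD, n = 2) to 4.38 ± 0.27 in KO (SD, n = 4). The chaperones Hspa9 and Trap1 rose by 2.45 (adjusted p = 0.000197) and 2.40 (adjusted p = 0.00146), and the protease Htra2 differed by -1.57 (adjusted p = 0.0443), a call lost in 13 of 23 other settings. Atf5, the factor tied to this response, did not pass. Cytosolic heat shock genes rose in 3 and fell in 2 of 11, with a median of -0.10 (-0.69 to 0.52 over the other settings). Hsph1 rose by 2.00, Stip1 by 1.81 and Hsp90aa1 by 1.37 (adjusted p = 0.0209, 0.0118 and 0.0119), calls that ended without WT samples 3 and 4 (0.169, 0.0874 and 0.0894). Hsf1, the factor that drives this program, fell by 1.79 (SE 0.29, limma adjusted p = 0.00151), and the inducible chaperone Hspa1a by 2.28 (adjusted p = 0.0306; 0.183 without WT samples 1 and 2, 0.0713 without WT samples 3 and 4, 0.0619 without KO array 1 and 0.0665 without KO array 3). At 4 months 0 genes of these 10 lists passed in either direction, and the list medians ran from 0.03 to 0.37.

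Other genes also differed between KO and WT at 16 months. Their part in the results of Ddit4 and of Atf4 on A_55_P1979728 was not tested. Of the 12 immediate early genes, transcribed soon after stimulation or handling of a cell, 11 fell, with a median of -3.38 (-4.39 to -1.96 over the other settings). They included Egr2 (-6.30), Jun (-5.11) and Fosb (-4.29). At 4 months 0 of the 12 passed, and their median was -0.01. Choroid plexus markers rose in 3 of 9 at 16 months, with a median of 2.42, and the sum of endothelium markers ranged from 10.8 to 12.6 (WT) and from 23.3 to 109 (KO), with 2 higher and 2 lower of 6. Oligodendrocyte markers ranged from 180 to 223 (WT) and from 30.1 to 141 (KO), with 1 higher and 4 lower of 7 and Mobp not above background on KO arrays. Astrocyte markers ranged from 26.9 to 29.8 (WT) and from 32.3 to 71.5 (KO) (2 higher, 1 lower of 6), with Gfap not above background on WT arrays. Neutrophil markers ranged from 60.2 to 284 (WT) and from 0.424 to 129 (KO), with 1 higher of 5 tested and Cxcr2 not above background on KO arrays. Neuron markers ranged from 7.35 to 10.8 (WT) and from 6.93 to 11.6 (KO), with 1 higher and 2 lower of 6. Monocyte markers ranged from 0.677 to 4.1 (WT) and from 0.289 to 1.35 (KO), with 1 higher of 3, and border macrophage markers from 32.2 to 59.4 (WT) and from 18.8 to 58.9 (KO), with none passing of 5 and Cd163 not above background on KO arrays. T and NK cell markers ranged from 0.285 to 0.459 (WT) and from 0.539 to 0.906 (KO), with 1 higher of 2, Cd3g not above background in either group and Cd2 in WT. Red blood cell markers ranged from 0.129 to 0.254 (WT) and from 0.76 to 11.7 (KO), where the 1 gene tested was higher and Alas2 was not above background on WT arrays. The share of probes well above background was 64.6 to 69.8% on the WT and 54.2 to 62.7% on the KO arrays of 16 months.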

How the data were processed

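Microglia RNA was measured on 15 single-color Agilent arrays (design 028005, Feature Extraction 10.7.3.1, per the file headers). The deposited processed signal is an intensity after background subtraction, per the file headers. On the values, that of the 4-month arrays also carries a factor that varies with position, and that of the 16-month arrays does not. R 2.15.3 is named too, per the submitters' processing notes. Bead arrays of brain regions were not used here. The scanner's flags well above background and outlier spot were used as deposited.

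Each signal was divided by its array's 75th percentile, repeat spots were averaged without outlier spots, values under 0.0325 (-4.94 on the log2 scale) were set to it, and log2 was taken. That floor is the highest, over arrays, of the lowest signal well above background. Probes well above background on at least 3 arrays were tested, with 1 linear model over 4 groups and 13 samples, in limma 3.58.1 (R 4.3.3). Every adjusted p is two-sided, from limma's moderated test with Benjamini-Hochberg adjustment over all probes tested, and passes under 0.05. WT arrays 1 and 2 of 16 months, and 3 and 4, agreed more closely (scaled median absolute deviation of log2 differences 0.13 and 0.094) than repeat spots (SD 0.24 or more) and were averaged. Each genotype filled its own row of the slide, so row and genotype cannot be told apart. The number of arrays limits the precision.

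Of 55681 probes 26582 had a symbol, through RefSeq accessions. All 11 member probes are named, and of the other lists, with the probe of highest mean per gene, up to 3 called genes per list and direction with the widest difference, and 14 further genes whatever their result. Listed symbols that are older names were matched through RefSeq synonyms. One gene that this rule names and 1 marker list are not reported here. The 10 genes and the lists were chosen with earlier results of these data known. The fit was also run on simulated data, and no result of that run is given or relied on here. Alternatives were background correction, normalization, percentile, filter, 1 probe per gene, the arrays of 1 age, a replicate block, 15 separate arrays, outlier spots kept and leaving out each sample.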

Additional observations from a re-analysis of the deposited data

Results flagged for a closer look

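The difference of Ddit4 between KO and WT differed between the ages. It was -3.41 (SE 0.62) at 16 months and 0.56 (SE 0.59) at 4 months, and the change between them was -3.97 (SE 0.85, limma adjusted p = 0.0194). Atf4 on probe A_55_P1979728 showed the same kind of difference, with -1.51 (SE 0.35) at 16 months and 0.15 (SE 0.31) at 4 months, and a change of -1.66 (SE 0.47, limma adjusted p = 0.0475). The ages lie on separate slides. Chac1 had 1 KO array of 16 months, array 2, at a level of -0.37, far from the other 3 at -4.87 to -4.30. Its gap to the nearest was 0.873 of the group's range. About 1 group in 20 would show such a gap by chance if values were normally spread. The other 3 values lay near the floor of -4.94, where that rate need not hold. Among 11 probes in 4 groups such a gap can also arise by chance. The same array had the lowest 75th percentile of all 15 (507.5) and the lowest share of probes well above background (54.2%).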

How the results depend on the processing

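Over 33 differences of member probes and up to 23 other settings, 700 of 742 values kept their direction and their side of the threshold, 17 lost and 1 gained a call, and 24 changed sign. Most of the 33 had not passed, and leaving out an array of 1 age does not move a difference at the other, so the 700 says little. The lost calls at 16 months and between ages were 3 of 23 and 12 of 22 for Atf4 on A_55_P1979728. For Ddit4 they were 1 of 23 and 1 of 22. The arrays of 16 months hold 2 WT samples, and leaving out either leaves 1, assumed to vary like the other groups. Normexp ran on median spot signals, chosen after seeing the data, because mean signals were not among the columns used here; keeping outlier spots was also added then. The causes of the changes below were not tested. The main fit shares 1 estimate of the spread over the 4 groups, and these groups spread unequally. By scaled median absolute deviation, arrays of a group differed by 0.384 to 0.511 at 4 months. The KO arrays of 16 months differed by 0.569 to 1.284. The fit of 1 age alone has fewer samples and does not share its spread with the other age.

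Labels of WT and KO arrays share replicate numbers. Same-numbered arrays of 4 months had correlated deviations of -0.039 to -0.028, and with 2 WT samples at 16 months (0.077 to 0.137 within and -0.137 to -0.077 across numbers) a pairing cannot be shown. With a replicate block the adjusted p was 0.0019 for Ddit4 and 0.0534 for Atf4 on A_55_P1979728 at 16 months, 1 member passed at 16 months and 1 between ages (Atf4 adjusted p = 0.162), and the calls over all probes were 10213 at 16 months, 1 at 4 months and 2327 between ages.

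With only the arrays of the age compared, 4064 probes and 0 members passed at 16 months (13326 probes at an unadjusted p under 0.05) and 26 at 4 months. At 4 months, instead of 10 probes, 1 passed with normexp, 3 with quantile normalization, 25 without a filter, 0 among probes above background on all arrays (905 at an unadjusted p under 0.05) and 32 with 15 separate arrays, where 8572 passed between ages. Without a filter 1 member passed between ages, where Atf4 had an adjusted p of 0.0622. Leaving out each sample gave 9447 to 15041 probes and 1 to 2 members at 16 months, 2 to 126 probes at 4 months, and 2915 to 6902 probes and 1 to 2 members between ages. The Atf4 change between ages passed in 3 of 13 of these fits (adjusted p 0.0215 to 0.148). It held without WT samples 1 and 2, KO array 2 or KO array 3 of 16 months. The counts of every list moved over the settings at 16 months. Rises and falls ranged from 2 to 7 and 1 to 4 for sensors, 2 to 9 and 0 to 2 for ER chaperones, 2 to 5 and 0 to 5 for ER degradation, 0 to 2 and 2 to 9 for ATF4 partners, 2 to 6 and 0 to 3 for amino acid synthesis, 0 to 0 and 1 to 9 for transporters, 2 to 7 and 1 to 5 for synthetases, 0 to 5 and 0 to 2 for mTORC1 genes, 3 to 7 and 0 to 1 for mitochondrial genes, 0 to 5 and 1 to 3 for heat shock genes and 0 to 0 and 3 to 12 for immediate early genes. In the fit of the 16-month arrays alone the 10 lists had 0 to 3 rises and 0 to 2 falls each.

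Leaving out each sample moved these differences from lowest to highest as follows. At 16 months Trib3 ranged from -0.87 to 0.58, Asns from -0.45 to 0.54, Chac1 from -0.52 to 1.44 and Atf4 on A_51_P464238 from -1.10 to 1.81. At 4 months Xbp1 ranged from -0.12 to 0.03, Atf5 from -0.67 to 0.01 and Sesn2 from -0.13 to 0.77. Between ages Atf5 ranged from -0.48 to 0.20, Ddit3 from -0.13 to 0.42 and Atf4 on A_51_P464238 from -0.45 to 2.46. Over single KO arrays of 16 months alone, Asns ranged from -0.31 to 0.45 and Chac1 from -0.52 to 0.98 at 16 months, and the highest Ddit3 value between ages was 0.32. Without WT samples 1 and 2 Trib3 was at 0.15 and Atf5 between ages at 0.09, and without WT samples 3 and 4 Chac1 was at -0.39.

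Signs changed only for probes that had not passed. Besides these ranges, at 16 months Trib3 was at 0.05 with normexp, Hspa5 at -0.13 with quantile normalization and Asns at -0.26 with the percentile over detected probes. Between ages Hspa5 was at -0.19 with quantile normalization and -0.02 with that percentile, and Ddit3 at -0.10 with that percentile.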
